A study of Mus musculus with 6 samples.

Results

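The collagen genes are the 42 genes, of 17564 in the deposited table, whose symbol is Col, a number, the letter a and a second number. They were compared between untreated back skin and back skin exposed to a bacterial protease and an allergen extract. All 6 samples were whole skin of wild-type C57BL/6 mice aged 8 weeks, shaved and depilated, and messenger RNA was sequenced in bulk. The 3 untreated samples (U1 to U3) received nothing further. The 3 treated samples (T1 to T3) were given 3 µg of SspA (the staphylococcal V8 protease) topically, with 10 µg of HDM (house dust mite extract). The application was repeated after 3 days and the skin was collected at day 7. No collection day is given for the untreated samples, and the labels leave unsaid whether each sample is a different animal. The p-values therefore reflect the variation among these libraries, part of which may be technical. The question was how transcripts of the collagen classes differ between the 2 kinds of skin.

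Collagens are secreted or membrane-bound proteins in which 3 chains wind into a triple helix, and each chain in the helix is a repeat of residue triplets that begin with glycine. Fibrillar collagens (types I, II, III, V, XI, XXIV and XXVII) form the cross-banded fibrils that give the dermis its strength, and FACIT collagens (fibril-associated collagens with interrupted triple helices) lie on the fibril surface. Type IV collagen forms the network of basement membranes, which in skin lies under the epidermis and around vessels, nerves and hair follicles, and transmembrane collagens span the cell membrane. Assigned by this textbook classification, the 42 genes comprised 11 fibrillar, 8 FACIT, 6 basement membrane, 4 transmembrane and 6 beaded filament (type VI) collagens. The others were the anchoring fibril collagen Col7a1, 2 short-chain network collagens (type VIII), 2 multiplexins (types XV and XVIII) and 2 genes, Col26a1 and Col28a1, placed in no class here. Col9a1 and Col10a1 were not analysed here.

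The glycine repeat can be read in the coding sequence, since all glycine codons begin with GG. The longest open reading frame of each gene was taken from the GENCODE M21 annotation of GRCm38 (all 42 matched by symbol), and runs were counted of consecutive units made of a GGN codon and any 2 codons after it. The sequences below show what an unbroken and an interrupted repeat look like in a fibrillar, a type IV and a transmembrane chain. Each is 90 bases, 5′ to 3′ along the coding strand. Capitals mark GGN codons, and where a run ends every later GGN codon is also in capitals.
Col1a1, codons 168 to 197: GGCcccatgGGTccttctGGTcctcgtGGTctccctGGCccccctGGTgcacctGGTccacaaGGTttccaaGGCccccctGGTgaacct
Col4a1, codons 148 to 177: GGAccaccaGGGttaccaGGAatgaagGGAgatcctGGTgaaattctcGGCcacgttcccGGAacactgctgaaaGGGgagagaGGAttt
Col17a1, codons 801 to 830: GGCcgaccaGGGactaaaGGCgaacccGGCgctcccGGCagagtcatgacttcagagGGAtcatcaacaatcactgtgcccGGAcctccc

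The Col1a1 stretch opens a run of 338 units, and its 10 capital codons stand at even spacing. The Col4a1 stretch holds the end of its longest run, of 40 units, and the spacing of the capitals then becomes uneven. The Col17a1 stretch holds the end of a run of 56 units, after which the capitals lie far apart. By class, the longest run was 216 to 344 units in the fibrillar genes (median 338), with the shortest in Col24a1 (216) and Col27a1 (217). It was 32 to 113 units in FACIT genes, 39 to 66 in type IV genes and 40 to 56 in transmembrane genes. Type IV genes had 16 to 19 separate runs of at least 10 units, whereas fibrillar genes had 2 or 3. This description of sequence used no expression value.

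**Figure D1:**
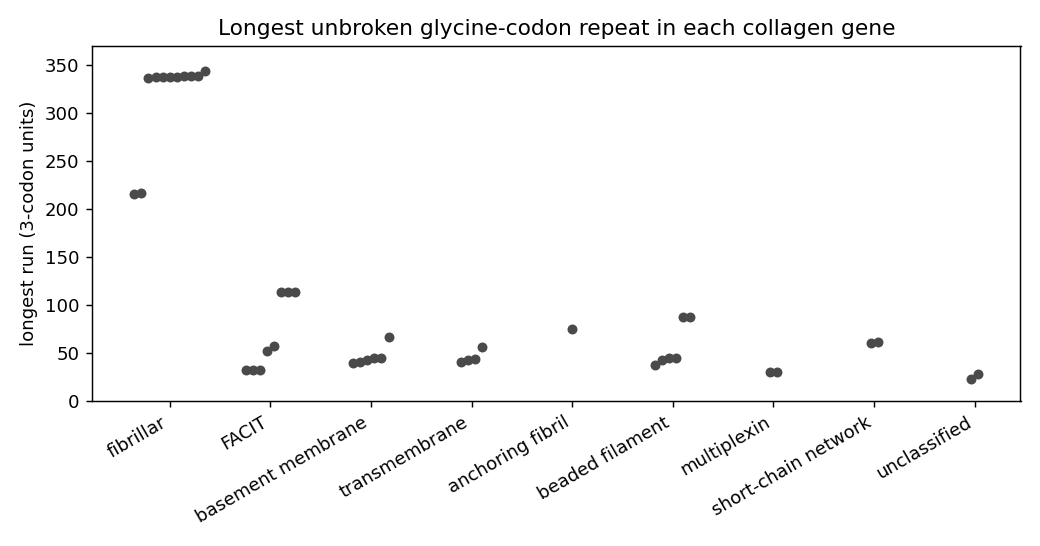
Longest unbroken run of glycine-repeat units in the coding sequence of each of the 42 collagen genes, by class; each point is a gene and the vertical axis counts units of 3 codons. Fibrillar genes sit at 216 to 344 units, and every other class at 113 or below.

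The reads recovered from the table ranged from 4928245 in U2 to 7545567 in T3, the other 4 libraries holding between 5580401 and 5821622. Values are scaled reads, that is, reads brought by the authors to a common total. Summed markers of fibroblasts, the main collagen-producing cells of dermis, ranged from 8231 to 8712 scaled reads in untreated and from 7386 to 9179 in treated skin, and none of the 10 was called. Of these 10 markers, 7 had negative and 3 positive log2 fold changes. Groups did not overlap for 3 of the 10, all on the lower side, beside 15.6% of all tested genes on that side. The 8 hair matrix and inner root sheath markers, 6 of them called higher, summed to 145 to 180 scaled reads in untreated skin and 1610, 510 and 3319 in T1, T2 and T3. The 6 neutrophil markers, all called higher, summed to 380 to 566 in untreated skin and 3149, 2580 and 1257 in T1 to T3. No marker present in the deposited table was at 0 in all libraries. The cartilage markers Matn1 and Matn3 were absent from it. The adipocyte markers (5591 to 7128 against 4289 to 4798, 3 of 6 called lower), the Schwann cell markers (2634 to 3117 against 2173 to 2232, 2 of 6 lower) and the skeletal muscle markers (13507 to 16302 against 9952 to 12311, 1 of 6 lower) had lower sums in treated skin. For each of these lists U2, the shallowest library, had the highest sum. T3, the deepest, had the lowest adipocyte and skeletal muscle sums but the highest Schwann cell sum among treated libraries. The part of depth in these sums was not tested. Of all tested genes, 9.26% were called higher and 7.23% lower. In bulk skin, fewer cells of a type and less RNA per cell cannot be told apart.

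Collagen genes moved in both directions. Of the 39 that passed the filter on low counts, 9 were higher in treated skin and 4 lower at a Benjamini-Hochberg adjusted p under 0.05, from limma over all 15534 genes tested. The 9 were Col5a1, Col5a2, Col11a1, Col27a1, Col12a1, Col14a1, Col13a1, Col7a1 and Col6a4, and the 4 were Col17a1, Col4a3, Col4a6 and Col8a2. Higher calls made up 23.1% of tested collagen genes, beside 9.26% of all tested genes, and lower calls 10.3%, beside 7.23%. Groups did not overlap for 11 collagen genes on the higher side (28.2%, beside 21.7% of all genes) and for 5 on the lower side (12.8%, beside 15.6%). The median log2 fold change was 0.26 over the tested collagens and 0.032 over all tested genes, with 27 positive and 12 negative. Leaving out U1, U2 or T2 left 4, 3 and 4 genes called higher, and leaving out U1, U3, T1 or T2 left 1, 2, 2 and 2 called lower. The 4 libraries of like depth, without U2 and T3, gave 6 lower. limma-voom on recovered reads called 4 higher. Limma without a trend in the spread called 2 higher. Col27a1, Col6a4 and Col8a2 passed in all 21 alternative analyses. The authors' deposited table also had 9 collagen genes higher and 4 lower at an adjusted p under 0.05, with no gene differing in its call from limma.

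**Figure D2:**
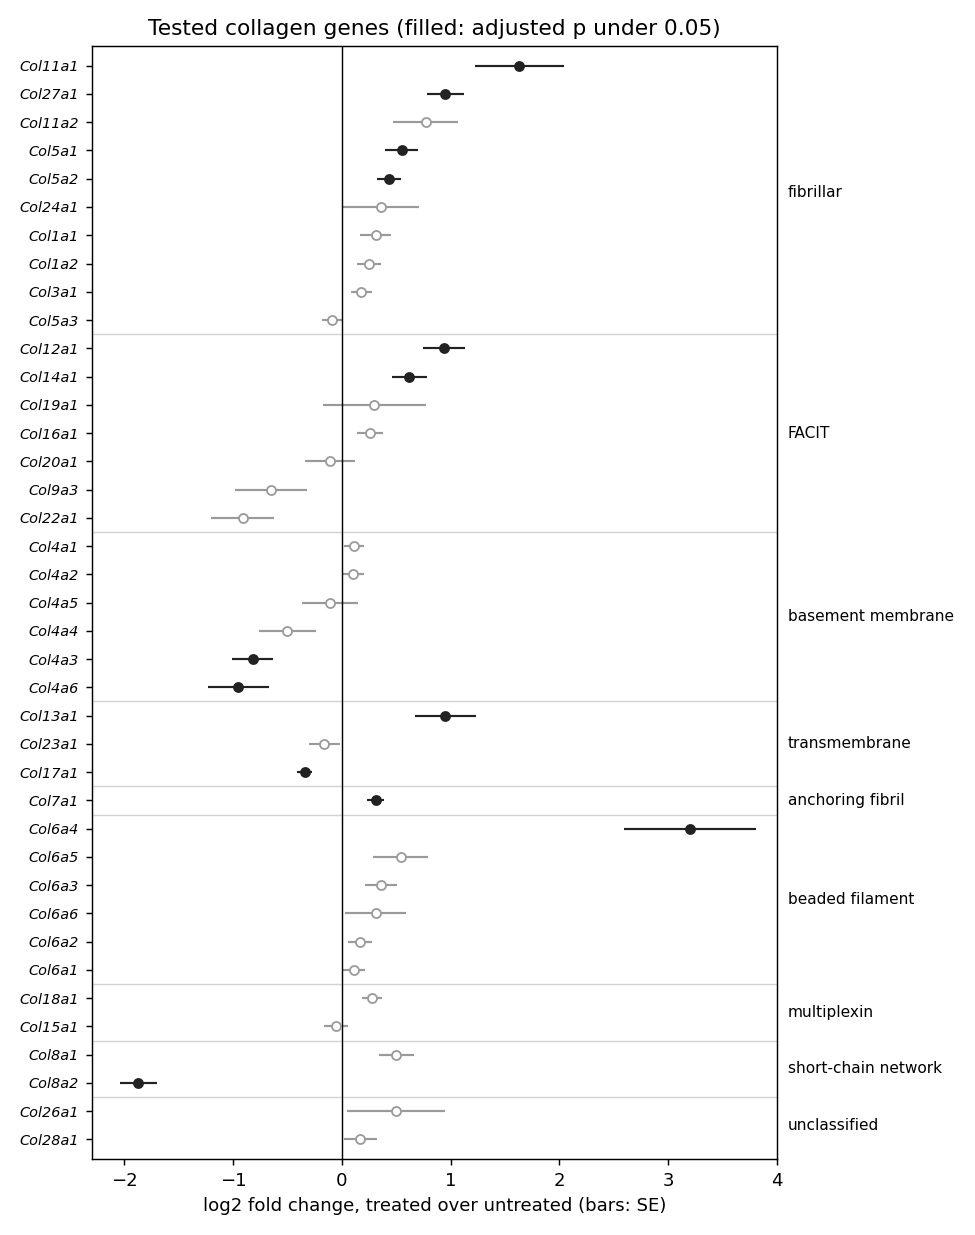
Log2 fold change (treated over untreated) of each tested collagen gene by class, with the standard error of limma as a bar; filled points passed an adjusted p under 0.05. Calls on the higher side lie mainly among fibrillar and FACIT genes, and calls on the lower side among type IV, transmembrane and short-chain genes.

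The class medians differed in sign, although no test of the classes against each other was made. The median log2 fold change was 0.39 over 10 tested fibrillar genes, with 4 higher and 0 lower, and 0.26 over 7 tested FACIT genes, with 2 higher and 0 lower. It was -0.30 over 6 basement membrane genes, with 0 higher and 2 lower, and -0.16 over 3 tested transmembrane genes, with 1 in each direction. The reads of a class need not follow its median, because a few genes hold most of them. Basement membrane genes summed to 5605, 5073 and 5043 scaled reads in U1 to U3 and to 4966, 5854 and 5178 in T1 to T3, so their total overlapped. The fibrillar total was 14574, 12685 and 15835 against 16748, 19876 and 16826, the FACIT total 3290, 2465 and 3388 against 3997, 5255 and 4418, and the transmembrane total 3712, 3526 and 3632 against 3044, 3213 and 2762. Those 3 totals did not overlap between the groups, and the transmembrane total was the one on the lower side. The FACIT median was -0.02 without U1 and -0.08 without U2, and the fibrillar median 0.58 without T1. The basement membrane median was -0.06 without T1, -0.48 without U2 and -0.53 without T3, and the transmembrane median -0.02 without T3 and -0.30 without T2.

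The fibrillar collagens that form the bulk of the dermal fibril came first in abundance on the deposited scale. If at most 1 read was kept per position, which is not known, that scale understates densely covered genes such as these most. Per kilobase of transcript, Col3a1 (the type III chain) stood at 640 scaled reads, Col1a2 (the α2 chain of type I) at 569 and Col1a1 (the α1 chain of type I) at 551 on average in untreated skin, followed by Col17a1 at 524. Their ranges over U1 to U3 were 596 to 677, 503 to 632, 435 to 643 and 513 to 535, so neighbours in this order did not differ beyond their spread. In treated skin Col3a1 was at 729, Col1a1 at 679 and Col1a2 at 675, ahead of Col17a1 at 414, and the 3 fibrillar genes (609 to 810 in single libraries) lay above the range of Col17a1 (395 to 427).

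None of those 3 major fibrillar genes passed the test on the deposited scale. Col1a1 (chr11:94936224-94953042, mm10) read 3387.66, 2556.26 and 3778.86 scaled reads in U1 to U3 and 3867.30, 4471.72 and 3629.78 in T1 to T3. The groups overlapped, T3 lying below U3, and the log2 fold change was 0.31 ± 0.14 (SE, n = 3 per group; limma adjusted p = 0.1730). Col1a2 read 2959.12, 2598.71 and 3264.18 against 3377.67, 3940.25 and 3144.97, a log2 fold change of 0.25 ± 0.11 (limma adjusted p = 0.1694). Col3a1 read 3557.98, 3283.12 and 3732.28 against 4101.37, 4466.27 and 3492.83, a log2 fold change of 0.18 ± 0.10 (limma adjusted p = 0.2584). In all 3 genes T1 and T2 were above every untreated library and T3, the deepest library, was not. U2, the shallowest, was the lowest of the 6.

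Of the minor chains that are built into such fibrils, Col5a1, Col5a2 and Col11a1 rose, while Col5a3 and Col11a2 were not called. Type V collagen, which has a part in starting type I fibrils and limiting their width, is encoded by Col5a1, Col5a2 and Col5a3. Col5a1 (chr2:27886425-28039510) read 1731.74, 1328.94 and 1842.85 scaled reads in untreated and 2036.55, 2800.00 and 2350.12 in treated skin, with no overlap. Its log2 fold change was 0.55 ± 0.15 (limma adjusted p = 0.0332), which is 1.47-fold. Col5a2 (chr1:45374331-45503282) read 1515.27, 1340.52 and 1682.65 against 1853.36, 2299.02 and 1953.53, also with no overlap (0.43 ± 0.11, limma adjusted p = 0.0297). The third chain gene, Col5a3, had a log2 fold change of -0.09 with overlapping groups (limma adjusted p = 0.5535). The Col5a1 call ended without U1 (adjusted p = 0.0687), U2 (0.0858) or T2 (0.1095), with limma-voom (0.0529), without a trend (0.0921) and with the 4 libraries of like depth (0.0608). The Col5a2 call ended without U1 (0.0820), U2 (0.0855) or T2 (0.1037) and without a trend (0.0844).

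Col11a1, a type XI chain best known from cartilage fibrils, and Col27a1, the type XXVII chain, rose from lower levels. Col27a1 (chr4:63215412-63334990) read 218.66, 190.40 and 245.41 scaled reads in untreated and 323.41, 454.14 and 501.62 in treated skin. All treated libraries lay above all untreated ones, and the log2 fold change was 0.95 ± 0.17 (limma adjusted p = 0.0092). Col11a1 (chr3:114030540-114220756) read 64.83, 59.18 and 72.71 against 133.43, 141.58 and 449.52. The groups did not overlap, but T3 was more than 3 times either other treated library, and the log2 fold change of 1.63 ± 0.41 (limma adjusted p = 0.0285) was 1.06 without T3 (0.0068) and 0.99 with the 4 libraries of like depth (0.0085), still past the threshold. T3 was also highest for the summed hair matrix markers given above and for the sum of the 4 cartilage markers measured, which came to 61.8 to 73.6 in untreated skin and to 73.5, 122 and 254 in T1 to T3. Most of the T3 sum was the proteoglycan gene Acan, the only one of the 4 called. Among the treated libraries, Comp and Cnmd were highest in T2. Acan stood at no more than 9.09 in untreated and at 23.8, 37.0 and 182 in treated skin (log2 fold change 3.02 ± 0.74, limma adjusted p = 0.0267). Their part in the Col11a1 result was not tested. The Col11a1 call ended without U1 (adjusted p = 0.0792), U2 (0.0833) or U3 (0.0522), with limma-voom (0.0886) and without a trend (0.0749).

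The other fibrillar genes gave no call. Col11a2 had a log2 fold change of 0.77 with no overlap of the groups (limma adjusted p = 0.1123), and Col24a1 one of 0.36 (0.5341). Col2a1, the cartilage type II chain, was below the filter, with 4 reads in all untreated and 16 in all treated libraries. Scaled for depth, that is a ratio of 3.43 with an exact 95% interval of 1.11 to 14.1 that covers counting error only.

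**Figure D3:**
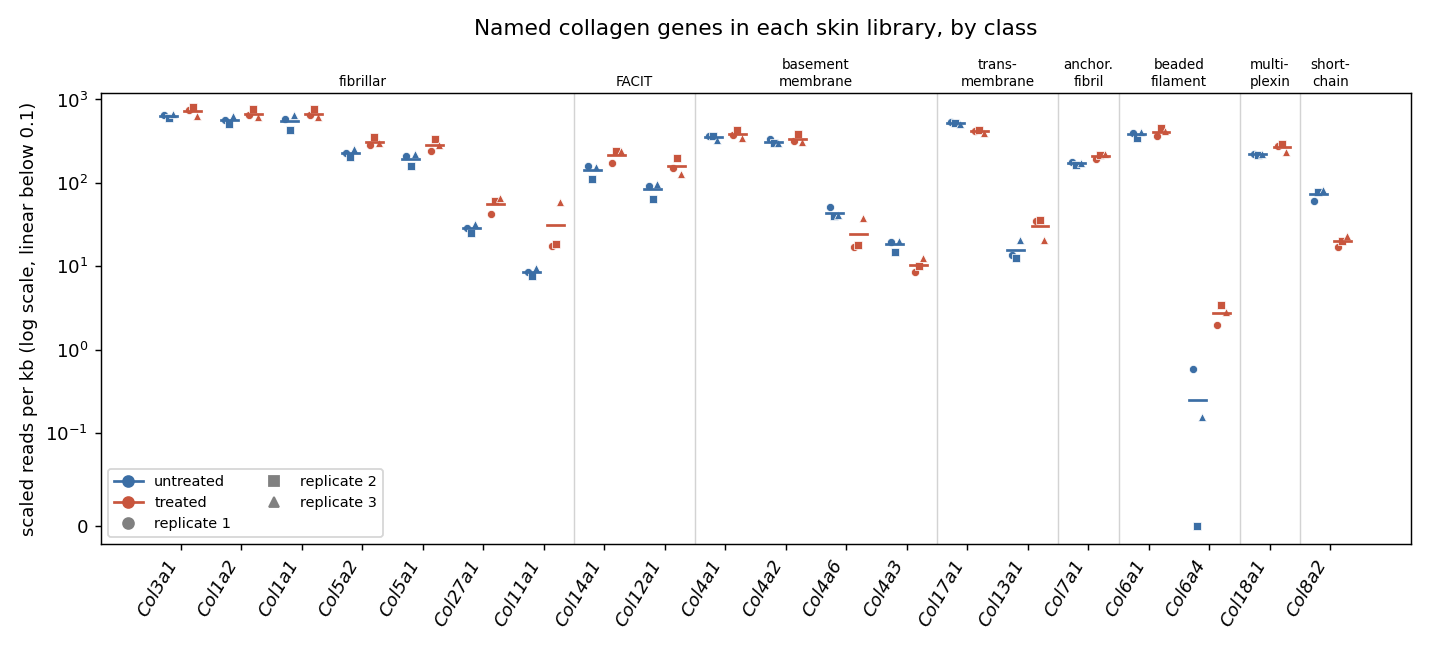
Scaled reads per kilobase of transcript (log axis, linear below 0.1) of the collagen genes named with per-sample values, grouped by class; each point is 1 of 3 untreated or 3 treated libraries and each bar a group mean. Col12a1, Col27a1 and Col8a2 show groups that lie apart, while Col1a1, Col1a2, Col3a1, Col4a1 and Col4a2 overlap.

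Among FACIT collagens, the types XII and XIV that coat the fibrils of dermis and fascia rose. Col12a1 (chr9:79598987-79718722) read 1065.85, 739.73 and 1120.25 scaled reads in untreated and 1769.68, 2336.05 and 1502.33 in treated skin. The groups did not overlap, and the gene was 1.91-fold higher (log2 fold change 0.94 ± 0.19, limma adjusted p = 0.0131). Its adjusted p passed the threshold in 20 of 21 alternatives, the exception being the fit without a trend (0.0505). Col14a1 (chr15:55307751-55520803) read 1026.30, 711.43 and 982.78 against 1107.04, 1522.52 and 1531.74, with T1 only just above U1 and no overlap. Its log2 fold change was 0.62 ± 0.16 (limma adjusted p = 0.0352), and 9 of 21 alternatives ended the call, namely leaving out U1 (0.0524), U2 (0.0909), U3 (0.0511), T2 (0.1160) or T3 (0.0705), limma-voom (0.0557), the fit without a trend (0.0958), removal of the trend with reads per base (0.0524) and the 4 libraries of like depth (0.0942). The other 5 tested FACIT genes were not called. Their log2 fold changes ran from -0.91 in Col22a1, found at tissue junctions, to 0.30 in Col19a1, with Col16a1 at 0.26, Col20a1 at -0.11 and Col9a3 at -0.65. Col22a1 had non-overlapping groups on the lower side (limma adjusted p = 0.0638, and 0.0326 after removal of the trend with reads per base). Col9a2 was below the filter, with 25 untreated and 26 treated reads.

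The 6 type IV genes lie in 3 head-to-head pairs, each pair transcribed outward from a shared region. Col4a1 and Col4a2 encode the chains of nearly all basement membranes. Col4a3, Col4a4, Col4a5 and Col4a6 encode chains of specialised ones, and the α5 and α6 chains are those that accompany α1 and α2 in the epidermal basement membrane. Neither gene of the abundant pair passed the test, and the rarer chains carried both lower calls. Per kilobase of transcript, Col4a1 and Col4a2 stood at 351 and 313 scaled reads in untreated skin, Col4a5 at 51.5, Col4a6 at 44.0, Col4a4 at 18.7 and Col4a3 at 18.3.

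Because the pairs did not all move alike, the sequences between their start sites are shown, from the RefSeq promoter table on GRCm38.p6, plus strand, 5′ to 3′. The Col4a1 and Col4a2 transcripts given by the authors start so close that their first 22 bases overlap, on chr8:11312805-11312826. That Col4a1 transcript carries a RefSeq identifier of the non-coding RNA kind, and starts of other Col4a1 transcripts were not examined. The Col4a4 and Col4a3 starts have 71 bases between them, on chr1:82586850-82586920. Capitals mark a GC box (GGGCGG, either strand).
Col4a1 and Col4a2: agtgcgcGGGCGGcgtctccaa
Col4a4 and Col4a3: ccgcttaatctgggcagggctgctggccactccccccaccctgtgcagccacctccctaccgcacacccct

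The shared 22 bases hold 1 GC box and 72.7% G or C, and 4.1% of the 32851 promoter stretches of that length hold the motif on either strand. The 71 bases hold 69.0% G or C and no match to the GC box, which 20.7% of stretches of that length hold. Neither stretch matched CCAAT on either strand, which 2.3% of the shorter and 13.3% of the longer stretches do. The Col4a6 and Col4a5 starts are 1342 bases apart on chromosome X and are not shown.

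Col4a1 (chr8:11198423-11312826) read 2404.22, 2382.58 and 2150.75 scaled reads in untreated and 2441.37, 2797.82 and 2266.93 in treated skin. Its groups overlapped, with a log2 fold change of 0.11 ± 0.09 (limma adjusted p = 0.4639). Col4a2 (chr8:11312805-11449287) read 2154.78, 1928.45 and 1928.06 against 2058.04, 2446.05 and 1973.70 (0.10 ± 0.10, limma adjusted p = 0.5064). The strand setting of the authors' counting is not given in the sources used here, so reads in the 22 shared bases could be credited to either gene.

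Col4a3 (chr1:82586921-82722059) read 169.22, 128.65 and 171.56 scaled reads in untreated and 73.50, 86.04 and 106.71 in treated skin. No treated library reached the lowest untreated one, and the log2 fold change was -0.82 ± 0.19 (limma adjusted p = 0.0226). Its neighbour Col4a4 (chr1:82450723-82586849) read 151.64, 108.07 and 176.10 against 70.11, 114.35 and 126.03, with overlapping groups (-0.50 ± 0.26, limma adjusted p = 0.2225). The Col4a3 call ended without U1 (adjusted p = 0.0845), U3 (0.0650), T1 (0.0645) or T2 (0.0710). Col4a6 (chrX:141165403-141474076) read 338.44, 263.73 and 269.27 against 113.08, 118.71 and 247.87. Its groups did not overlap, T3 lying far closer to the untreated libraries than to T1 and T2, and the log2 fold change was -0.95 ± 0.28 (limma adjusted p = 0.0473). Its neighbour Col4a5 (chrX:141475419-141689235) read 386.78, 261.16 and 347.66 against 210.33, 290.78 and 457.08, spreading across the untreated range (-0.11 ± 0.26, limma adjusted p = 0.8168). The Col4a6 call ended without U1 (adjusted p = 0.1467), U2 (0.0940), U3 (0.0825), T1 (0.1323) or T2 (0.1461), with edgeR (0.0693), with limma-voom (0.0559) and without a trend (0.1055).

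T3, the deepest library, was the highest treated library for each of Col4a3, Col4a4, Col4a5 and Col4a6, and for the hair matrix markers. U2, the shallowest library, was the lowest untreated library for each of these 4 genes. The part of depth in this order was not tested. With the 4 libraries of like depth, which leave out U2 and T3, all 4 genes passed on the lower side: Col4a4 then had a log2 fold change of -0.86 (limma adjusted p = 0.0437) and Col4a5 one of -0.57 (0.0435), and the median over the 6 type IV genes was -0.71. The basal keratinocyte markers summed to 9703 to 10352 scaled reads in untreated and 7959 to 10623 in treated skin. Of these 6 markers, 4 had negative and 2 positive log2 fold changes. Only Krt15 was called, and it was lower (log2 fold change -0.45 ± 0.08, limma adjusted p = 0.0086). The endothelial markers summed to 2723 to 3225 against 3376 to 3947. Of these 6 markers, 5 had positive and 1 negative log2 fold changes, and only Emcn and Tie1 were called, both higher. The part of these cell types in the type IV values was not tested.

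**Figure D4:**
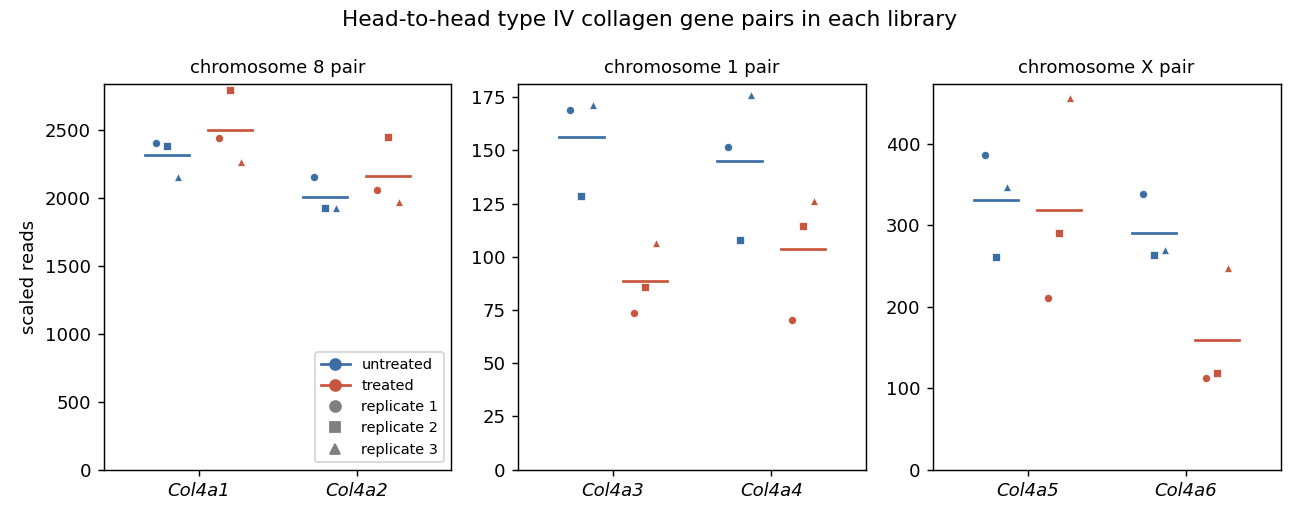
Scaled reads of the 6 type IV collagen genes in each library, drawn as 3 panels of head-to-head neighbours; each point is 1 of 3 untreated or 3 treated libraries and each bar a group mean. Col4a1 and Col4a2 overlap between groups, Col4a3 and Col4a6 do not, and T3 is the highest treated point for the 4 rarer genes.

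Transmembrane collagens went in different directions. Col17a1, the type XVII collagen of hemidesmosomes that anchors basal keratinocytes to the basement membrane, held most of the class's reads. Col17a1 (chr19:47646341-47692042) read 2934.95, 2871.45 and 2810.86 scaled reads in untreated and 2296.63, 2343.68 and 2164.43 in treated skin. Each group was tight and the groups lay well apart, with a log2 fold change of -0.34 ± 0.07, 1.27-fold lower (limma adjusted p = 0.0132). The call ended without U1 (adjusted p = 0.0520) and after removal of the trend with reads per base, where the log2 fold change was -0.21 (0.0934). Col13a1 (chr10:61838234-61979108), the type XIII collagen of cell adhesions and the neuromuscular junction, read 42.85, 38.59 and 63.62 against 109.69, 111.08 and 64.70. T3 lay barely above U3, and the log2 fold change of 0.95 ± 0.28 (limma adjusted p = 0.0476) missed the threshold in 12 of 21 alternatives, with an adjusted p of up to 0.1591, reached without T2. It also missed without U1 (0.1341), U2 (0.1381) or T1 (0.1347). Col23a1 gave a log2 fold change of -0.16 (limma adjusted p = 0.4811). Col25a1 was below the filter, with 13 untreated and 46 treated reads, a depth-scaled ratio of 3.04 (exact 95% interval 1.61 to 6.12, counting error only). Its libraries read 4.40, 5.15 and 5.68 against 9.05, 7.62 and 26.05 scaled reads, T3 again highest. Where a laxer filter admitted it, the transmembrane median over 4 genes was 0.40 in place of -0.16.

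Of the 6 type VI genes, whose chains form beaded filaments around cells and fibrils, all 6 had positive log2 fold changes and 1 was called. Col6a1, a core chain of the filament, read 1539.45, 1372.68 and 1600.85 scaled reads in untreated and 1416.88, 1781.72 and 1668.69 in treated skin (log2 fold change 0.11 ± 0.10, limma adjusted p = 0.5201), with overlapping groups. Col6a2 and Col6a3 had log2 fold changes of 0.17 and 0.36, and the later chains Col6a5 and Col6a6 ones of 0.54 and 0.31, none called. Col6a4 (chr9:105990318-106096691) was called at very low counts. It read 4.40, 0.00 and 1.14 against 14.70, 25.05 and 21.01, which is 5 reads in all untreated and 61 in all treated libraries. Scaled for depth, the ratio of those sums was 10.5 (exact 95% interval 4.25 to 33.4, counting error only), and limma gave a log2 fold change of 3.20 ± 0.61 (adjusted p = 0.0112), a value that depends on the pseudocount at such counts. Col6a5 and Col6a6 lie beside it on the same strand of chromosome 9, with 29674 bases between Col6a4 and Col6a5.

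Col7a1 encodes the chain of the anchoring fibrils that tie the epidermal basement membrane to the dermis. It (chr9:108953586-108984875) read 1622.96, 1505.19 and 1558.81 scaled reads in untreated and 1787.78, 1985.37 and 2025.79 in treated skin. The rise was small and without overlap, with a log2 fold change of 0.31 ± 0.08 (limma adjusted p = 0.0270). The call ended without U1 (adjusted p = 0.0606), U2 (0.0741), U3 (0.0687) or T2 (0.1037), with edgeR (0.0548), limma-voom (0.0555), TMM scaling (0.0509) and libraries of like depth (0.0535), and without a trend (0.0784). Beside Col17a1, its partner at the dermal-epidermal junction, the directions were opposite: Col7a1 was higher and Col17a1 lower in all 3 treated libraries.

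The type VIII chains Col8a1 and Col8a2 form hexagonal networks in Descemet's membrane and vessel walls. Col8a2 (chr4:126286794-126314330) fell more than any other tested collagen gene. It read 263.72, 339.63 and 357.89 scaled reads in untreated and 73.50, 87.13 and 99.99 in treated skin, 3.65-fold lower with wide separation (log2 fold change -1.87 ± 0.17, limma adjusted p = 8.76e-04). The adjusted p lay between 1.50e-18 and 0.0064 over the 21 alternatives, the lowest from the authors' deposited table. Col8a1 had a log2 fold change of 0.50 with overlapping groups (limma adjusted p = 0.0676, and 0.0447 without U1 and 0.0324 without T3).

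The multiplexin Col18a1, a basement membrane zone collagen whose fragment is endostatin, read 1247.16, 1197.72 and 1238.41 scaled reads in untreated and 1539.00, 1641.23 and 1309.07 in treated skin. Its groups did not overlap, but the log2 fold change of 0.28 ± 0.09 missed the threshold (limma adjusted p = 0.0662). It passed without T3 (0.0096), with the 4 libraries of like depth (0.0090), after removal of the trend with reads per base (0.0308) and with reads estimated from filled positions (0.0484). Col15a1, the other multiplexin, had a log2 fold change of -0.05 (limma adjusted p = 0.8251). Col26a1 and Col28a1 had log2 fold changes of 0.50 and 0.17 and were not called.

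The abundant collagens were also the most densely covered genes of the family. No gene of the table exceeded 0.923 reads per base of transcript in any library, and the sources used here do not give the handling of reads that start at the same position. As an alternative, reads were estimated from the share of filled positions, as minus the transcript length times the natural log of 1 minus reads per base. Col3a1, Col1a2 and Col1a1 had the highest density, at a mean of 0.634, 0.578 and 0.574 reads per base. Their log2 fold changes became 0.46 (limma adjusted p = 0.0464), 0.50 (0.0568) and 0.59 (0.0773) in place of 0.18, 0.25 and 0.31. Of the 19 collagen genes above 0.1 reads per base, all 19 kept their sign and 17 moved farther from 0. The formula widens differences most at high read density, so these shifts follow largely from it and add no separate evidence. It applies only if at most 1 read was kept per position, which is not known. With the 4 libraries of like depth, Col3a1 had a log2 fold change of 0.23 (limma adjusted p = 0.0476).

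**Figure D5:**
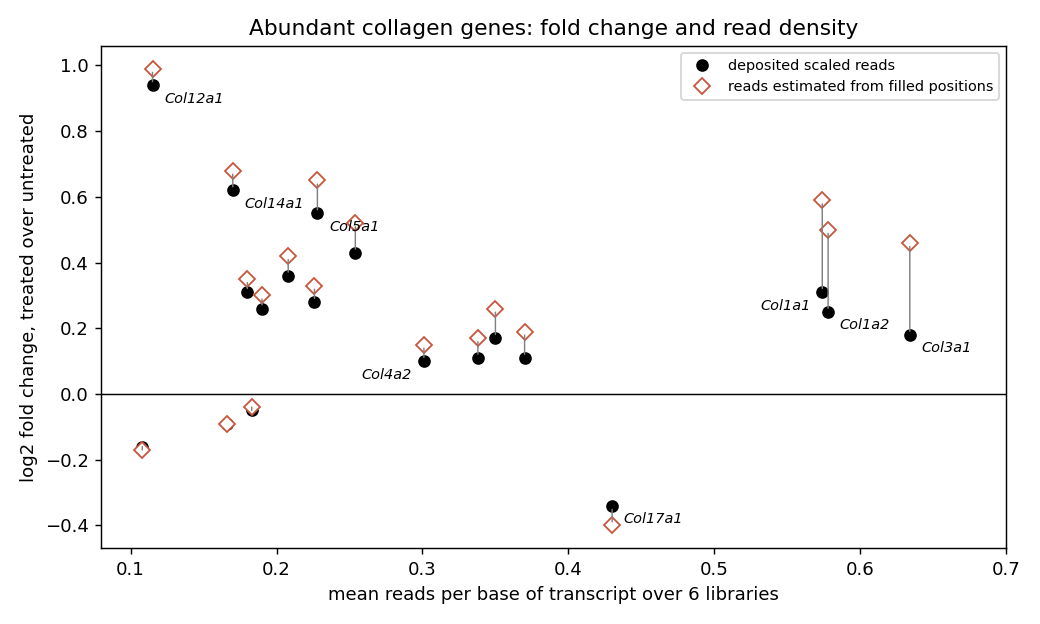
Mean reads per base of transcript (horizontal axis) against log2 fold change (vertical axis) of the 19 collagen genes above 0.1 reads per base, on the deposited scale and with reads estimated from filled positions. The 2 values lie farthest apart for Col1a1, Col1a2 and Col3a1, the genes with the highest density, where the formula itself shifts values most.

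Ratios between partner chains, and between types III and I, were compared in 5 tests of 3 libraries against 3, which cannot give a p below 0.10, so no ratio could have passed 0.05 and the values are descriptive. The log2 ratio of Col1a1 to Col1a2 averaged 0.127 in untreated and 0.195 in treated skin, a difference of 0.067 with a pooled SD of 0.093 (exact two-sided permutation p = 0.80, n = 3 per group). The difference was 0.006 for Col4a1 over Col4a2 (pooled SD 0.063, exact permutation p = 1.00) and -0.129 for Col3a1 over Col1a1 (pooled SD 0.149, exact permutation p = 0.50). It was 0.125 for Col5a1 over Col5a2 (pooled SD 0.094, exact permutation p = 0.20). The Col6a1 to Col6a2 ratio did not overlap between groups, at 0.197, 0.257 and 0.185 in untreated and 0.170, 0.158 and 0.112 in treated skin. That difference of -0.066 had an exact permutation p of 0.10, the smallest possible, and 0.50 after adjustment over the 5 ratios.

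The genes that modify, cross-link, bind and cleave collagen were taken from 4 lists with 63 entries, of which 61 were tested, 12 (19.7%) were higher and 2 (3.28%) lower, beside 9.26% and 7.23% of all tested genes. Without T2, 7 were higher. The lower calls numbered 1 without U1 or T2 and 4 without T1, without T3 or with the 4 libraries of like depth. In the list of 32 synthesis and crosslinking genes, 6 were higher and 2 lower, with a median log2 fold change of 0.12. Lox, the lysyl oxidase that starts the cross-links between collagen molecules, read 685, 539 and 782 scaled reads in untreated and 1170, 1346 and 1054 in treated skin. Its groups did not overlap (log2 fold change 0.84 ± 0.14, limma adjusted p = 0.0072). Fkbp10, a prolyl isomerase of the endoplasmic reticulum that acts on procollagen, had a log2 fold change of 0.74 ± 0.13 (limma adjusted p = 0.0097), and Bmp1, the procollagen C-proteinase, one of 0.48 ± 0.09 (0.0117). P3h1, which hydroxylates proline at the 3 position, had one of 0.62 ± 0.12 (limma adjusted p = 0.0120). Lower in treated skin were P3h2, the prolyl 3-hydroxylase known for acting on type IV collagen (-0.40 ± 0.08, limma adjusted p = 0.0149), and Pcolce2, an enhancer of the C-proteinase (-0.73 ± 0.14, 0.0122). Of these 6, Lox, Fkbp10, Bmp1, P3h1 and Pcolce2 passed in all 21 alternatives, and P3h2 failed without U1 (adjusted p = 0.0633) or T2 (0.0608). The remaining higher calls, Tll1 and Loxl3, were less stable and failed in 5 and 13 of the 21 alternatives. The collagen chaperone gene Serpinh1 had a log2 fold change of 0.02 and P4hb, the shared subunit of prolyl 4-hydroxylase, one of 0.00.

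The 9 genes for collagen-cleaving enzymes included 5 of the higher calls, with all 7 tested members positive and a median log2 fold change of 0.93. Mmp13, a collagenase, read 29.7, 6.43 and 22.7 scaled reads in untreated and 479, 409 and 156 in treated skin (log2 fold change 4.16 ± 0.56, limma adjusted p = 0.0038). Mmp8, the neutrophil collagenase, read 5.49, 1.29 and 9.09 against 292, 330 and 50.4 (5.01 ± 0.75, limma adjusted p = 0.0051). In both, T3 was the lowest treated library, as it was for the neutrophil markers given above, and the part of neutrophils in these values was not tested. The gelatinase gene Mmp9 had a log2 fold change of 1.95 ± 0.44 (limma adjusted p = 0.0198), Mmp3 one of 0.93 ± 0.19 (0.0150) and the membrane-bound Mmp14 one of 0.39 ± 0.09 (0.0201). The Mmp9 and Mmp14 calls both ended without U1 (0.0545 and 0.0639), U2 (0.0657 and 0.0611), T1 (0.0625 and 0.0649) or T2 (0.0688 and 0.0815), and the Mmp3 call without T1 (0.0538) or T2 (0.0562). Without a trend in the spread the calls of Mmp3 (0.0525), Mmp9 (0.0634) and Mmp14 (0.0652) ended too. With limma-voom the calls of Mmp8 (0.1045) and Mmp9 (0.0936) ended. Mmp1a and Mmp1b were below the filter. Of 9 collagen receptor genes, Lair1, an inhibitory receptor of immune cells, was called higher, at 30.8, 12.9 and 27.3 against 81.4, 123 and 64.7 scaled reads (1.92 ± 0.36, limma adjusted p = 0.0111). None of the 13 fibril-associated genes was called, and their median was -0.02.

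Over the 6 libraries, Col1a1 varied most like Col1a2 among the collagen genes (Pearson r = 0.968 on log2 values), followed by Col12a1 (0.914), Col5a1 (0.910), Col5a2 (0.906) and Col16a1 (0.891). Among 13328 other genes with a mean of at least 50 scaled reads, Exoc2 (0.995), Caap1 (0.992), Ccr2 (0.989), Dock5 (0.987) and Eme2 (0.986) had the highest r. With 6 points that share their depth and group, these values only describe the libraries.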

How the data were processed

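Per the labels' protocols, whole-skin libraries came from a kit for stranded mRNA. The tools were STAR, DESeq2 and bcl2fastq 2.20.0.422, and the build mm10, as named in the submitters' processing notes. The sources used here do not give the counter, the strand setting or the handling of duplicate reads. The authors deposited 1 table of scaled signal per gene in 6 columns, together with the authors' deposited log2 fold changes, p-values and transcript lengths (another deposited unit, in bases). Divided by the value of 1 read, 100.0% of the entries came within 0.1 of an integer, so whole reads were recovered. edgeR on those reads called 1249 genes higher and 1204 lower.

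Genes passing filterByExpr of edgeR 4.0.16 (minimum count 10, minimum total 15) entered limma 3.58.1 (R 4.3.3) as log2(value + 1), with limma's trend, a model holding the group alone, and Benjamini-Hochberg adjustment over all 15534 genes. Fold changes are on that log2(value + 1) scale, so those of low genes are understated. The pipeline was tested on simulated data. Permutation tests used scipy 1.17.1 in Python 3.11.15, and figures matplotlib 3.10.9.

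The members, classes and gene lists were chosen with earlier results of these data known. Named with values were all called collagen genes and 13 core genes, in other lists up to 4 called genes of smallest p or all where 5 or fewer were called in a direction, and the 5 genes most like Col1a1. Further genes named (the other members, Acan, Tll1, Loxl3, and list members not called) were chosen after their values were seen. The 21 alternatives were DESeq2 1.42.0, edgeR, limma-voom, other pseudocounts, scalings and filters, no trend, 2 corrections for reads per base, 4 libraries of like depth (without U2 and T3), a replicate block, each library left out, and the authors' deposited comparison. Col9a1 and Col10a1 were not analysed here.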

Additional observations from a re-analysis of the deposited data

How the results depend on the processing

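The collagen, modifying, binding and cleaving genes called on the deposited scale kept their sign in the 21 alternatives, but the FACIT and transmembrane medians, which have no test, changed sign under some alternatives. The count of collagen genes called higher, 9 on the deposited scale, was 4 with limma-voom and 2 without a trend in the spread, and ranged from 3 to 10 when 1 library was left out. The count called lower, 4, ranged from 1 to 4 when 1 library was left out and was 6 with the 4 libraries of like depth. For the modifying, binding and cleaving genes, whose alternatives were chosen after seeing the data, leaving out 1 library gave 7 to 14 higher and 1 to 4 lower, and the 4 libraries of like depth gave 4 lower. Leaving out 1 library gave fibrillar medians of 0.28 to 0.58, FACIT medians of -0.08 to 0.23, basement membrane medians of -0.53 to -0.06 and transmembrane medians of -0.30 to -0.02. The basement membrane median was -0.71 with libraries of like depth, and the FACIT median 0.05 after removal of the trend with reads per base. In the authors' deposited table the FACIT median was -0.04, where Col9a2 enters with a log2 fold change of -0.29 and Col19a1 has one of 0.08 in place of 0.30. In limma with no filter, which also admits Col9a2, the FACIT median was 0.07. The transmembrane median was 0.40 with no filter or at least 1 CPM in 3 libraries and 0.37 in the authors' deposited table, where Col25a1 enters. The Col6a1 to Col6a2 difference, an alternative also added later, was -0.027 with libraries of like depth. The causes of these shifts were not tested. Same-numbered libraries had deviations correlated at -0.09, -0.05 and 0.05. Taken from means of 3 libraries, these values cannot show whether the numbers pair libraries. A replicate block gave 9 higher and 4 lower collagen genes. Its medians were 0.39 (fibrillar), -0.30 (basement membrane), 0.26 (FACIT and whole family) and -0.16 (transmembrane). That block ended the call of Col13a1 (limma adjusted p = 0.0691) and added Col8a1 (0.0387). Over all genes, calls numbered 1439 higher and 1123 lower, 922 and 640 without a trend, and 610 and 529 without T2. TMM scaling gave 1277 and 1261. Depth limits Col2a1, Col9a2, Col25a1 and Col6a4, which rest on few reads. It also limits Col19a1 (30 untreated and 39 treated reads) and Col26a1 (35 and 74). The log2 fold change of Col19a1 ran from -0.11 to 0.82 over the 21 alternatives.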
